A study of Mus musculus with 6 samples.

Results

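The 48 genes described here encode the keratin filaments, claudins, cadherins, desmosome and tight junction proteins, apical polarity proteins, splicing and transcription factors and the matriptase system that mark an epithelial cell. They were chosen by name, with earlier results of these data known. All 48 were found among the 25239 genes counted by bulk RNA sequencing of mouse thyroid organoids. The organoids came from 1 line of G4 RosaLuc embryonic stem cells, grown from an isolated clone that carried the cassettes TRE-Nkx2-1-Pax8 and bTg-NES-BrafV637E-ERT2. In every group doxycycline, given for 5 days, had switched on Nkx2-1 and Pax8, and a cAMP analogue had then matured the follicles. In every group a Braf V637E-ERT2 fusion, whose mutation is the mouse counterpart of human BRAF V600E, stood under the bovine thyroglobulin promoter, so that the oncogene was meant for the thyroid cells.

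Each group held 2 libraries, all harvested at day 31. The cAMP group received vehicle and left the fusion inactive. The 4OHT group received 1 µM 4-hydroxytamoxifen, which activates the fusion, for 5 days. The PD+LY group received 4-hydroxytamoxifen together with 250 nM PD0325901, a MEK inhibitor, and 5 µM LY204002, a PI3K inhibitor, for the last 3 days. The paper writes the name of this PI3K inhibitor both as LY204002 and as LY294002. The total time of the PD+LY organoids on 4-hydroxytamoxifen is not given for these libraries themselves. The paper's general methods state that all inhibitor treatments followed an earlier period on 4-hydroxytamoxifen, which was then continued with the inhibitors. By that account the PD+LY exposure was longer than the 5 days of the 4OHT group. A different length of exposure and the inhibitors therefore cannot be told apart in the comparison of PD+LY with 4OHT. Follicles had been enriched by filtering, which left other cell types in the cultures, and wells were pooled for each library. No label ties a library to a separate culture, so the p-values below measure the spread between these libraries, which may be technical.

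A thyroid follicle is a closed sheet of a simple epithelium around a lumen. Keratins form its intermediate filaments, E-cadherin and Epcam join neighbouring cells, and desmosomes anchor the keratins to the membrane. Claudins and their scaffold proteins seal the space between cells and set which ions pass, while the Crumbs and Par proteins define the side that faces the lumen. The splicing factors Esrp1 and Esrp2 and the transcription factors of the Grainyhead-like and Ovo-like families keep the epithelial programme of genes on, and Snail and Zeb factors repress many of the same genes through a short DNA element called an E-box.

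That element is shown here because it is frequent near the start sites of these genes. A promoter window, from 250 bases before to 50 after the start, was held by RefSeq (GRCm38.p6) for 30 of the 48 genes. The letters CACCTG or their reverse complement CAGGTG stood in the windows of 19 of the 30 genes (63.3%), against 22.15% of 11974 tested genes with a window and 20.2% of all 32851 windows. Of the 11 genes that fell at least 2-fold in PD+LY against cAMP and had a window, 9 held the element. It also stood in the windows of Dsp and F11r, which rose in that comparison, and of Krt7, which was called higher in 4OHT against cAMP. Whether the element relates to any change was not tested. Stretches upstream of the start of 6 genes follow, 5′ to 3′ on the coding strand with the E-boxes in capitals. Epcam, Rab25, Krt5 and Tjp3 fell at least 2-fold in that comparison, Cldn4 fell by less, and Pard6b did not pass the test in any comparison although it holds a pair of the elements.
Epcam, chr17:87635729-87635978, plus strand: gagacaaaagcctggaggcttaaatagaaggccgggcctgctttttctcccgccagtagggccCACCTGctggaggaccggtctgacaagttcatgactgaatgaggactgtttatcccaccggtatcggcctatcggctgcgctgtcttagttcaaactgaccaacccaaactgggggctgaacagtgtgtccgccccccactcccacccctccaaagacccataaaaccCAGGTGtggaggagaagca
Rab25, chr3:88548280-88548429, minus strand: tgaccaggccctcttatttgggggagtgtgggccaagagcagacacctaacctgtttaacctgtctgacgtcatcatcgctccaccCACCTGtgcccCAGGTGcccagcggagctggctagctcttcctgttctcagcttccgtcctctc
Krt5, chr15:101712906-101713055, minus strand: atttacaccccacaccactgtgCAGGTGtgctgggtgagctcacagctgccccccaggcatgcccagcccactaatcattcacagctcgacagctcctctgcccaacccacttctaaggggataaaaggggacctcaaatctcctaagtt
Tjp3, chr10:81291582-81291731, minus strand: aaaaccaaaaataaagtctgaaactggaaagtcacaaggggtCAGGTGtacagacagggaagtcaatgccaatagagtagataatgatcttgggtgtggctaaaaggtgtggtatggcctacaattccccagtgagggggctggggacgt
Cldn4, chr5:134946935-134947084, minus strand: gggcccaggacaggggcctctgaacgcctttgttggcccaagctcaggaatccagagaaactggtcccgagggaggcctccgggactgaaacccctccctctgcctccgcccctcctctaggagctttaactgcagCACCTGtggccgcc
Pard6b, chr2:168080854-168081003, plus strand: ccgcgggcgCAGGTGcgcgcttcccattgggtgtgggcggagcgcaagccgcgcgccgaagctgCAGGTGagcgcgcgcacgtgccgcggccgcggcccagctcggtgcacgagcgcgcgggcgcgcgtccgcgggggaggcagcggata
Counted from the start site, the E-boxes in these stretches begin at −187 and −19 in Epcam, −64 and −53 in Rab25, −128 in Krt5, −108 in Tjp3, −14 in Cldn4, and −141 and −86 in Pard6b. Outside them, Cldn4 has another at 11 and Tjp3 another at −17 of a second start site. The Grainyhead motif AACCGGTT stood in none of the 30 windows, against 0.259% of tested genes. The AP-1 motif TGACTCA stood in 3 windows (Cldn4, F11r and Spint1), against 4.58% of tested genes, and the ETS motif CCGGAAGT in 3 (Cldn7, Crb3 and Spint1), against 8.12%, each counted on both strands. A match of letters is a description and not a bound site.

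The libraries held 14898409 to 20637959 counts, so that 1 count was worth 0.0486 to 0.0667 CPM (counts scaled to a library total of 1000000). All 48 genes passed the filter on low counts, and 43 of them had at least 10 counts in every library. The 12 thyroid markers summed to 1660 and 1112 CPM in cAMP, 575 and 768 in 4OHT, and 2001 and 1000 in PD+LY, and thyroglobulin (Tg) was counted in every library, from 514 to 1870 CPM. The 10 pluripotency markers summed to 3843 to 4697 CPM in all 6 libraries, and none of them changed by 2-fold with adjusted p under 0.05. The 10 mesenchymal markers summed to 1216 and 1323 CPM in cAMP, 2264 and 2384 in 4OHT, and 4866 and 4123 in PD+LY. In PD+LY against cAMP 5 of these 10 were called higher, namely Col1a1, Col1a2, Col3a1, Postn and Dcn, whereas Pdgfrb was called lower (−1.06), Thy1 fell by 0.73 (adjusted p = 0.0069 in edgeR), and Pdgfra, Lum and Prrx1 did not pass. Embryonic stem cells are themselves known to express E-cadherin and Epcam. In such bulk samples fewer cells of a type and less RNA per cell cannot be told apart, and the part of these other cells in the changes below was not tested.

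Per kilobase of transcript, the most abundant of the genes in cAMP were Krt18 (136 CPM per kb), Epcam, Cdh1 (87.1), Spint2 (83.4), Cldn4 (68.6), Cldn6 (51.8) and Krt8 (51.6). Krt18 and Krt8 are keratins of simple epithelia, while Cdh1, Epcam and Cldn6 are also expressed by pluripotent cells. Which cells of the cultures gave this order was not tested. At the other end lay Cldn23 (0.266 CPM per kb), Cldn2 (0.401), Ovol1 (0.576) and Cldn9 (0.585), all near the limit of detection.

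A gene was called when its Benjamini-Hochberg adjusted p in edgeR's quasi-likelihood test was under 0.05 and its change was at least 2-fold. Comparing 4OHT with cAMP addresses what 4-hydroxytamoxifen does in organoids that carry the fusion. No library had the drug without the fusion, so the drug itself and the oncogene cannot be told apart here. In that comparison 1 of the 48 genes was called higher and 5 lower, against 1.17% and 1.51% of all 15256 tested genes. By adjusted p alone 4 were higher and 10 lower (background 4.04% and 4.35%), and the median log2 change of the 48 genes was −0.18, beside −0.00 for all tested genes. Krt7 was the gene called higher, and Cldn5, Cldn6, Crb3, Rab25 and Esrp1 were those called lower. The 48 genes and the wider list below were chosen with earlier results known. Their shares beside the background, here and in the other comparisons, are therefore descriptions and not tests.

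Comparing PD+LY with 4OHT addresses what blocking MEK and PI3K does while the oncogene is active, within the limit on exposure given above. Here 1 gene was called higher, Cldn2, and 10 lower, against a background of 2.35% and 4.9%. By adjusted p alone 6 rose and 23 fell (background 10.7% and 12.1%), with a median log2 change of −0.44 beside 0.01 for all tested genes. Comparing PD+LY with cAMP sets the inhibited organoids beside those whose oncogene was never activated. In it Dsp was called higher and 13 genes lower (background 3.0% and 6.24%), 2 rose and 22 fell by adjusted p alone (12.1% and 13.7%), and the median was −0.58 beside 0.00. The comparisons share libraries pairwise, so their counts are not independent of each other.

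**Figure D1:**
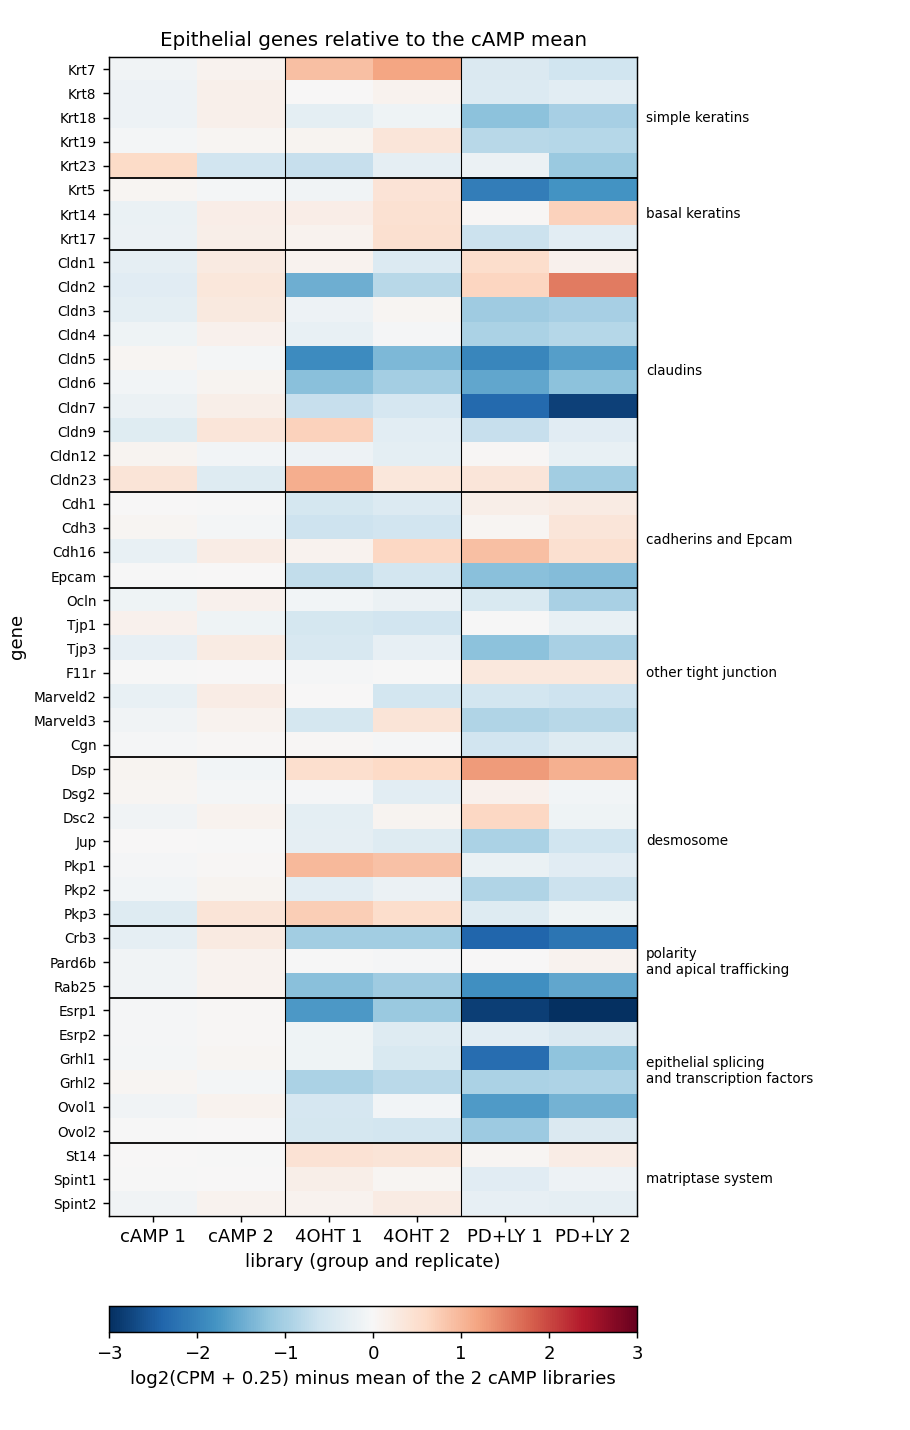
Level of each of the 48 genes in the 6 libraries, as log2(CPM + 0.25) minus the mean of the 2 cAMP libraries; rows are genes grouped by role, columns are libraries, red is above and blue below the cAMP mean. Esrp1, Crb3, Cldn7 and Rab25 are blue throughout 4OHT and deepest in PD+LY, whereas Dsp is red in both and Krt7 and Pkp1 are red in 4OHT only.

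The calls in 4OHT against cAMP rested on few libraries. Of the 14 genes with adjusted p under 0.05 in edgeR, 3 stayed under it without 4OHT replicate 1 (Krt7, Cldn6 and Esrp1), 6 without 4OHT replicate 2, 8 without cAMP replicate 1 and 9 without cAMP replicate 2. In PD+LY against 4OHT, 15 of 29 stayed under it without 4OHT replicate 2, 19 without 4OHT replicate 1, 20 without PD+LY replicate 1 and 28 without PD+LY replicate 2. For the 24 genes of PD+LY against cAMP, 17 did so without cAMP replicate 2 and 21 to 23 without any other single library. None of these genes changed sign in any of these fits. A fit of only the groups compared took Rab25 (0.083) and Spint1 (0.056) over 0.05 in PD+LY against 4OHT, and Krt8 (0.074), Ocln (0.066) and F11r (0.054) in PD+LY against cAMP.

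The simple keratins are the filament proteins of single-layered epithelia, in which Krt8 pairs with Krt18 and Krt7 and Krt19 mark ducts and many carcinomas. Krt7 stood at 27.0 and 31.7 CPM in cAMP, 54.9 and 66.5 in 4OHT, and 21.6 and 19.2 in PD+LY. No group overlapped another. It rose by 1.05 ± 0.14 (log2 fold change ± SE) in 4OHT against cAMP (edgeR adjusted p = 0.0012) and was lower by 1.57 ± 0.14 in PD+LY against 4OHT (adjusted p = 3.1e-05). Its PD+LY libraries lay below the cAMP libraries (−0.53 ± 0.14, adjusted p = 0.019, and −0.40 without cAMP replicate 2). Without 4OHT replicate 2 the rise was 0.90, under 2-fold. Krt7 lies at chr15:101411043-101430313 (GRCm38, GENCODE M21) and shares 77 bases with an antisense transcript that counting without strand could not separate.

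Krt18 and Krt8, the pair of filament partners, moved unequally. Krt18 stood at 176 and 214 CPM in cAMP, 157 and 177 in 4OHT, and 82.3 and 97.0 in PD+LY, with overlap only between cAMP and 4OHT. Krt8 stood at 90.4 and 112 CPM in cAMP, 101 and 108 in 4OHT, and 75.9 and 80.5 in PD+LY. The PD+LY libraries were the lowest for both genes. Krt18 did not pass the test in 4OHT against cAMP (log2 fold change −0.22, adjusted p = 0.28) and fell by 0.90 ± 0.12 in PD+LY against 4OHT (adjusted p = 0.00042) and by 1.12 ± 0.12 against cAMP (adjusted p = 5.6e-05; 0.96 without cAMP replicate 2). Krt8 fell by 0.42 ± 0.11 and 0.37 ± 0.11 in those comparisons (adjusted p = 0.022 and 0.033). The first had an adjusted p of 0.19 without 4OHT replicate 2, and the second was 0.20 with an adjusted p of 0.36 without cAMP replicate 2. The count ratio of Krt18 to Krt8 was 1.94 and 1.91 in cAMP, 1.56 and 1.63 in 4OHT, and 1.08 and 1.20 in PD+LY, and the 3 ranges did not overlap. A processed pseudogene, Krt8-ps, matches 941 bases of Krt8 at 98.6% identity, and another, Gm5200, matches 1267 bases of Krt18 at 90.45%. Part of the reads of either gene may therefore have been lost or shared.

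Krt19 stood at 38.9 and 42.4 CPM in cAMP, 43.0 and 52.4 in 4OHT, and 22.9 and 22.2 in PD+LY. Its PD+LY libraries lay below the other 4, and it fell by 1.08 ± 0.13 against 4OHT (edgeR adjusted p = 0.00023; 0.93 without 4OHT replicate 2) and by 0.85 ± 0.13 against cAMP (adjusted p = 0.00072). Krt23, the least abundant of the 5, ranged from 0.924 to 3.52 CPM and passed no test.

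Among the keratins of basal and stratified epithelia, Krt5 and its partner Krt14 parted. Krt5 stood at 15.5 and 14.3 CPM in cAMP, 13.9 and 19.7 in 4OHT, and 3.36 and 4.09 in PD+LY. Krt14 stood at 7.04 and 9.45, 9.41 and 11.3, and 8.35 and 13.3 CPM in the same order. Krt5 was thus about as high in 4OHT as in cAMP and lowest in both PD+LY libraries, whereas the Krt14 groups overlapped. Krt5 fell by 2.17 ± 0.22 in PD+LY against 4OHT and by 1.99 ± 0.22 against cAMP (edgeR adjusted p = 5.5e-05 and 5.7e-05), while Krt14 differed by 0.06 ± 0.24 and 0.39 ± 0.24 (adjusted p = 0.88 and 0.27). The count ratio of Krt5 to Krt14 was 1.48 to 2.20 in the cAMP and 4OHT libraries and 0.402 and 0.307 in PD+LY. Krt17, a keratin of stressed and appendage epithelia that matches Krt14 over 756 bases at 91.0% identity, fell by 0.82 ± 0.21 against 4OHT (adjusted p = 0.018, 0.21 without 4OHT replicate 2). The 8 basal and squamous markers, Krt5 and Krt14 among them, summed to 37.0 and 42.9 CPM in cAMP, 46.0 and 62.3 in 4OHT, and 25.1 and 30.8 in PD+LY. Because this sum contains Krt5, it is not a separate measure beside the fall of Krt5. Sprr1a, another of the 8, stood at 4.09 and 7.65 CPM in cAMP, 13.7 and 19.0 in 4OHT, and 5.55 and 5.59 in PD+LY. Trp63, Krt14, Krt15, Sbsn and Dsg3 passed no test.

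Summed per kilobase, the 8 keratins gave 219 and 261 CPM per kb in cAMP, 221 and 254 in 4OHT, and 128 and 143 in PD+LY. The sum was thus similar in cAMP and 4OHT, and its make-up was not. Krt7 made up 3.01% and 2.97% of it in cAMP, 6.06% and 6.40% in 4OHT, and 4.14% and 3.28% in PD+LY, and Krt18 55.8% and 57.0%, 49.3% and 48.4%, and 44.8% and 47.2%.

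**Figure D2:**
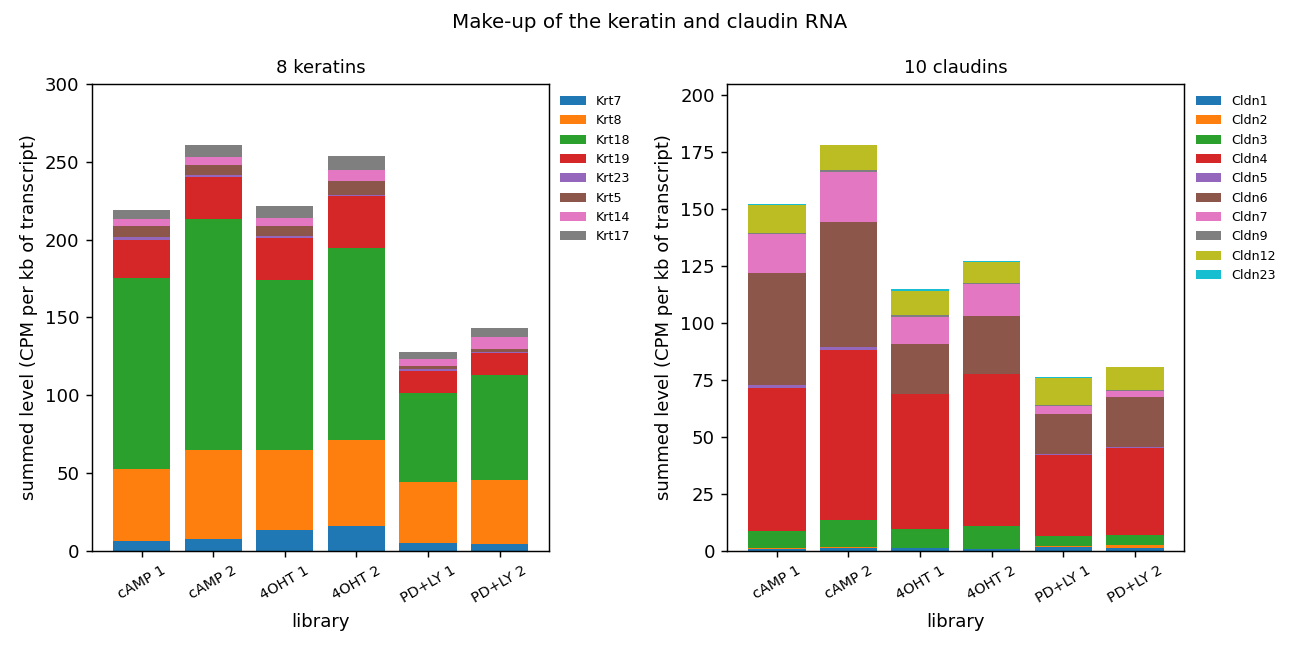
Summed level of the 8 keratins (left) and the 10 claudins (right) in each library, in CPM per kilobase of transcript, with each gene's part in its own colour. Keratin sums are 219 to 261 in cAMP and 4OHT and 128 and 143 in PD+LY, whereas claudin sums step down from cAMP through 4OHT to PD+LY.

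Claudins span the membrane at tight junctions and set how leaky the seal is and to what. The 10 claudins summed to 152 and 178 CPM per kb in cAMP, 115 and 127 in 4OHT, and 76.2 and 80.7 in PD+LY, with no overlap between groups. Cldn4, a claudin of tight, sealing epithelia, and Cldn6, a claudin of embryonic epithelia and pluripotent cells, made up most of the sum in every library. Cldn6 held 32.1% and 30.7% of it in cAMP, 18.8% and 19.9% in 4OHT, and 22.9% and 27.3% in PD+LY.

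Cldn6 stood at 79.4 and 88.7 CPM in cAMP, 35.0 and 41.0 in 4OHT, and 28.3 and 35.8 in PD+LY. The cAMP libraries lay above all others, and the 4OHT and PD+LY libraries overlapped. It fell by 1.14 ± 0.14 in 4OHT against cAMP (edgeR adjusted p = 0.00061, at most 0.028 without any single library) and did not pass the test between PD+LY and 4OHT (−0.25 ± 0.14, adjusted p = 0.23). In PD+LY against cAMP it fell by 1.39 ± 0.14 (adjusted p = 3.5e-05). The summed pluripotency markers, 4003 and 3843 CPM in cAMP, were 4542 and 4346 in 4OHT and 4407 and 4697 in PD+LY. Of the 10, 2 rose and none fell by edgeR adjusted p in 4OHT against cAMP, while relative to cAMP in PD+LY 4 rose and 2 fell, Tdgf1 by 0.86 and Utf1 by 0.98 (adjusted p = 0.00019 and 0.0038). The part of pluripotent cells in the change of Cldn6 was not tested.

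Cldn7, which forms a complex with Epcam, had its largest step between 4OHT and PD+LY. It stood at 23.0 and 29.6 CPM in cAMP, 15.9 and 18.4 in 4OHT, and 4.94 and 3.55 in PD+LY. The groups did not overlap. The difference of −0.61 ± 0.18 in 4OHT against cAMP did not pass the test (edgeR adjusted p = 0.062), and Cldn7 then fell by 2.02 ± 0.21 in PD+LY against 4OHT and by 2.63 ± 0.21 against cAMP, a 6.20-fold lower level (adjusted p = 6.7e-05 and 5.8e-06). Per count of Epcam there were 0.113 to 0.144 counts of Cldn7 in the cAMP and 4OHT libraries, and 0.0577 and 0.0432 in PD+LY.

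Cldn4 and Cldn3, which both bind a bacterial enterotoxin and often occur together, were also lower in PD+LY. Cldn4 stood at 114 and 136 CPM in cAMP, 107 and 121 in 4OHT, and 64.5 and 68.9 in PD+LY. Cldn3 stood at 9.75 and 14.6, 10.7 and 12.5, and 5.55 and 5.84 CPM. For both, cAMP and 4OHT overlapped and PD+LY lay below. From 4OHT to PD+LY, Cldn4 fell by 0.77 ± 0.11 (edgeR adjusted p = 0.00069) and Cldn3 by 1.03 ± 0.22 (adjusted p = 0.0065, and 0.91 with adjusted p = 0.088 without 4OHT replicate 2). Against cAMP they fell by 0.90 ± 0.11 and 1.10 ± 0.22 (adjusted p = 0.00015 and 0.0034), and for Cldn3 the adjusted p was 0.056 without cAMP replicate 2. The count ratio of Cldn4 to Cldn3 was 9.28 to 11.8 in all 6 libraries.

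Cldn2, a claudin that forms cation and water pores in leaky epithelia, moved the other way. Its counts were 14 and 32 in cAMP, 4 and 10 in 4OHT, and 39 and 81 in PD+LY, or 0.881 and 1.56, 0.267 and 0.549, and 1.99 and 3.94 CPM. All groups stood apart, at low counts. It rose by 2.81 ± 0.55 in PD+LY against 4OHT (edgeR adjusted p = 0.0039). Leaving out single libraries gave 2.23 to 3.45, the extremes being without PD+LY replicate 2 and without 4OHT replicate 2, with an adjusted p of at most 0.047. Against cAMP neither the difference of 4OHT (−1.55 ± 0.60, adjusted p = 0.14) nor that of PD+LY (1.25 ± 0.46, adjusted p = 0.067) passed the test.

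Cldn5 is known above all as the claudin of endothelial cells. It stood at 2.01 and 1.80 CPM in cAMP, 0.334 and 0.603 in 4OHT, and 0.306 and 0.438 in PD+LY. The cAMP libraries were the highest, and it fell by 1.98 ± 0.52 in 4OHT against cAMP (edgeR adjusted p = 0.037) and by 2.33 ± 0.53 in PD+LY against cAMP (adjusted p = 0.0069). The fall in 4OHT had an adjusted p of 0.076 in DESeq2 and of 0.25 in edgeR without 4OHT replicate 1. Of the 7 endothelial markers tested, 3 were called lower in 4OHT against cAMP with it, namely Kdr (−2.31), Cdh5 (−1.47) and Tie1 (−3.46). Pecam1, the most abundant, rose by 0.36. The summed markers were 177 and 167 CPM in cAMP, 191 and 191 in 4OHT and 170 and 173 in PD+LY. Most of this sum was Pecam1 in every library (135 and 128 CPM in cAMP, 171 and 168 in 4OHT, 148 and 155 in PD+LY). The sum thus follows Pecam1 more than the 3 markers that fell. The part of endothelial cells in the change of Cldn5 was not tested. The other claudins, Cldn1, Cldn9, Cldn12 and Cldn23, passed no test, and of these only Cldn12 exceeded 5.30 CPM (36.1 to 47.1).

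E-cadherin (Cdh1) and Epcam, the most abundant adhesion molecules per kilobase in cAMP, fell together in 4OHT and parted in PD+LY. Cdh1 stood at 389 and 382 CPM in cAMP, 269 and 292 in 4OHT, and 434 and 455 in PD+LY. Epcam stood at 203 and 205 CPM in cAMP, 123 and 138 in 4OHT, and 85.6 and 82.1 in PD+LY. For both genes no group overlapped another, but the order of PD+LY was opposite. In 4OHT against cAMP, Cdh1 fell by 0.46 ± 0.09 and Epcam by 0.64 ± 0.09 (edgeR adjusted p = 0.0078 and 0.0021, and 0.14 and 0.075 without 4OHT replicate 1). In PD+LY against 4OHT, Cdh1 rose by 0.67 ± 0.09 and Epcam fell by 0.64 ± 0.10 (adjusted p = 0.00031 and 0.00077). Epcam thus ended 2.43-fold below cAMP (adjusted p = 4.1e-06), and Cdh1 at 0.20 ± 0.09 above it, which did not pass the test (adjusted p = 0.10). The count ratio of Cdh1 to Epcam was 1.92 and 1.86 in cAMP, 2.19 and 2.11 in 4OHT, and 5.07 and 5.54 in PD+LY. Cdh1 lies at chr8:106603351-106670246 and Epcam at chr17:87635979-87651129 (GRCm38).

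P-cadherin (Cdh3), which lies beside Cdh1 on chromosome 8, followed the pattern of Cdh1. It stood at 61.8 and 57.3 CPM in cAMP, 38.4 and 39.8 in 4OHT, and 62.0 and 76.9 in PD+LY. It fell by 0.60 ± 0.13 in 4OHT (edgeR adjusted p = 0.014, 0.15 without 4OHT replicate 1) and rose by 0.83 ± 0.13 in PD+LY against 4OHT (adjusted p = 0.00084). Cdh16, a cadherin of kidney and thyroid epithelium, ranged from 3.14 to 7.18 CPM and passed no test, its difference being 0.71 ± 0.28 in PD+LY against cAMP (adjusted p = 0.086). The summed thyroid markers, most of whose counts are Tg, were lowest in 4OHT, as Cdh1 and Cdh3 were, and the part of thyroid cells in these changes was not tested. The catenins that bind the cadherin tail are abundant in many cell types. Ctnna1 stood at 553 to 603 CPM in all 6 libraries, and Ctnnb1 rose by 0.31 in PD+LY against 4OHT (adjusted p = 0.020).

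**Figure D3:**
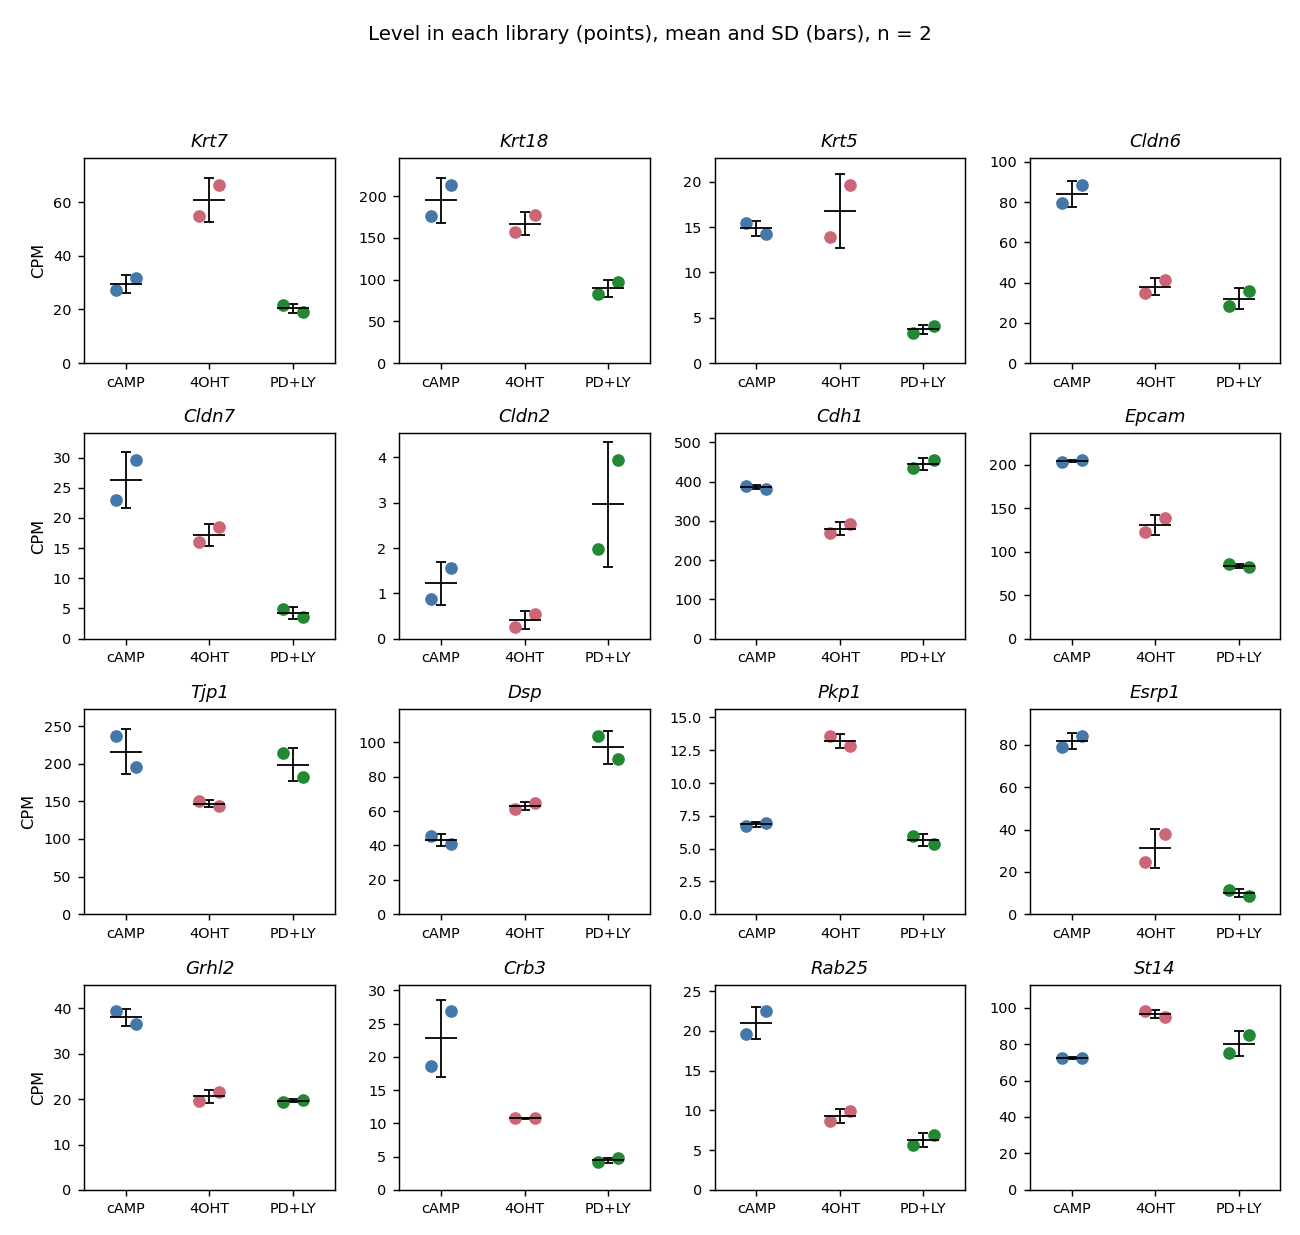
Level of 16 of the genes in each library in CPM on linear axes that start at 0; points are libraries, black bars the mean and SD of 2 libraries. Cdh1, Tjp1 and Cldn2 dip in 4OHT and are higher in PD+LY, Krt7, Pkp1 and St14 peak in 4OHT, and Esrp1, Epcam, Crb3 and Rab25 step down from cAMP to 4OHT to PD+LY.

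Tjp1 and Tjp3, scaffold proteins of the tight junction, moved in opposite directions from 4OHT to PD+LY. Tjp1 (ZO-1) stood at 237 and 195 CPM in cAMP, 150 and 144 in 4OHT, and 214 and 183 in PD+LY. Tjp3 (ZO-3) stood at 32.6 and 46.6 CPM in cAMP, 27.9 and 32.6 in 4OHT, and 16.4 and 19.9 in PD+LY. Tjp1 was lowest in 4OHT and its other groups overlapped, whereas Tjp3 was lowest in PD+LY. From cAMP to 4OHT Tjp1 fell by 0.56 ± 0.11, and from there to PD+LY it rose by 0.43 ± 0.11 (edgeR adjusted p = 0.013 and 0.018, both 0.15 without 4OHT replicate 2). Tjp3 did not pass the test in 4OHT against cAMP (−0.39, adjusted p = 0.20), where its libraries overlapped. It fell by 0.74 ± 0.18 in PD+LY against 4OHT (adjusted p = 0.013, 0.14 without 4OHT replicate 2) and by 1.13 ± 0.18 against cAMP (adjusted p = 0.00078), or 0.83, under 2-fold, without cAMP replicate 2. The count ratio of Tjp1 to Tjp3 was 4.19 to 7.28 in the cAMP and 4OHT libraries and 13.1 and 9.20 in PD+LY.

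F11r (JAM-A), an adhesion protein of the junction, was at 74.1 to 76.1 CPM in the cAMP and 4OHT libraries and at 94.6 and 94.7 in PD+LY. It rose by 0.35 ± 0.09 in PD+LY against 4OHT (edgeR adjusted p = 0.020, 0.14 without 4OHT replicate 2). Occludin (Ocln), a membrane protein of the same junctions, stood at 8.11 and 9.60 CPM in cAMP, 8.27 and 7.84 in 4OHT, and 6.32 and 4.38 in PD+LY, and fell by 0.73 ± 0.22 in PD+LY against cAMP (adjusted p = 0.032, 0.20 without cAMP replicate 2). Cingulin (Cgn), a cytoplasmic linker, fell by 0.47 ± 0.12 and 0.48 ± 0.12 in PD+LY relative to 4OHT and cAMP (adjusted p = 0.015 and 0.011, and 0.12 without 4OHT replicate 1 and 0.083 without cAMP replicate 2), and a pseudogene matches 1716 of its bases at 98.7% identity. The tricellular junction protein Marveld2 and its relative Marveld3 passed no test and ranged from 1.22 to 6.68 CPM.

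The desmosome genes did not move as one. Desmoplakin (Dsp), which ties keratin to the desmosome, stood at 45.5 and 40.7 CPM in cAMP, 61.4 and 64.7 in 4OHT, and 104 and 90.1 in PD+LY. It was the gene of the 48 that rose by adjusted p in every comparison, by 0.55 ± 0.12, 0.62 ± 0.11 and 1.17 ± 0.11 (edgeR adjusted p = 0.014, 0.0026 and 2.9e-05), the first with an adjusted p of 0.15 without 4OHT replicate 2. Plakoglobin (Jup), its partner in the plaque, stood at 128 and 127 CPM in cAMP, 105 and 97.9 in 4OHT, and 65.3 and 84.4 in PD+LY. The groups of each gene stood apart, in opposite orders. Jup fell by 0.44 ± 0.12 in PD+LY against 4OHT and by 0.76 ± 0.12 against cAMP (adjusted p = 0.022 and 0.00074), the first being 0.27 without PD+LY replicate 1 and having an adjusted p of 0.15 without 4OHT replicate 1. The difference of −0.33 in 4OHT did not pass (adjusted p = 0.12). The count ratio of Dsp to Jup was 0.356 and 0.321 in cAMP, 0.584 and 0.661 in 4OHT, and 1.59 and 1.07 in PD+LY. Dsp shares 499 of its exon bases with another transcript on the opposite strand, which counting without strand could not separate.

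Plakophilins link desmoplakin to the desmosomal cadherins. Pkp1, the plakophilin of stratified epithelia, stood at 6.73 and 6.97 CPM in cAMP, 13.6 and 12.8 in 4OHT, and 5.96 and 5.35 in PD+LY. It peaked in 4OHT as Krt7 did, rising by 0.95 ± 0.18 against cAMP (edgeR adjusted p = 0.0096, 0.12 without 4OHT replicate 1) and falling by 1.22 ± 0.19 in PD+LY against 4OHT (adjusted p = 0.00082). Pkp3 differed by 0.59 ± 0.25 in 4OHT (adjusted p = 0.18) and fell by 0.92 ± 0.26 in PD+LY against 4OHT (adjusted p = 0.024). That fall was 0.78 without PD+LY replicate 1. Pkp2, at 64.3 and 72.5 CPM in cAMP and 36.2 and 43.9 in PD+LY, fell by 0.53 ± 0.13 against 4OHT and by 0.77 ± 0.13 against cAMP (adjusted p = 0.011 and 0.0010, the first 0.14 without 4OHT replicate 2). The desmosomal cadherins Dsg2 and Dsc2 passed no test, at 71.3 to 96.9 and 9.81 to 18.8 CPM.

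Crb3 and Rab25 serve the apical side of the cell, Crb3 as a Crumbs protein that defines it and Rab25 as a GTPase that recycles vesicles to it. Crb3 stood at 18.7 and 26.9 CPM in cAMP, 10.7 and 10.8 in 4OHT, and 4.13 and 4.72 in PD+LY. Rab25 stood at 19.6 and 22.5, 8.67 and 9.93, and 5.65 and 6.91 CPM. Both stepped down from group to group without overlap. Crb3 fell by 1.08 ± 0.19 in 4OHT against cAMP, by 1.28 ± 0.21 in PD+LY against 4OHT and by 2.37 ± 0.21 in PD+LY against cAMP, a 5.16-fold lower level (edgeR adjusted p = 0.0065, 0.0015 and 1.3e-05). The fall of Crb3 in 4OHT was 0.79 without cAMP replicate 2 and had an adjusted p of 0.094 without 4OHT replicate 1. Rab25 fell by 1.18 ± 0.18, 0.57 ± 0.19 and 1.74 ± 0.18 (adjusted p = 0.0024, 0.048 and 4.4e-05), and the adjusted p was 0.064 without 4OHT replicate 1 in the first of these comparisons and 0.29 without 4OHT replicate 2 in the second. Pard6b, a Par complex protein of the same domain, stood at 49.6 to 57.1 CPM in all 6 libraries and differed by no more than 0.07 ± 0.11.

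Esrp1 was the gene of the 48 with the largest fall in PD+LY against cAMP. Esrp1 directs the epithelial splice forms of many transcripts, such as those of FGF receptors and Cd44. It stood at 79.1 and 84.3 CPM in cAMP, 24.7 and 37.7 in 4OHT, and 11.4 and 8.75 in PD+LY, with no overlap between groups. It fell by 1.38 ± 0.18 in 4OHT against cAMP, by 1.64 ± 0.20 in PD+LY against 4OHT and by 3.02 ± 0.20 in PD+LY against cAMP, an 8.13-fold lower level (edgeR adjusted p = 0.00096, 0.00020 and 1.3e-06). Leaving out any single library left all 3 under 0.05. Its relative Esrp2, at 4.38 to 6.14 CPM, passed no test, with differences of −0.27 ± 0.23, −0.13 ± 0.23 and −0.40 ± 0.23. There were 13.4 and 13.7 counts of Esrp1 per count of Esrp2 in cAMP, 4.51 and 8.28 in 4OHT, and 2.37 and 2.00 in PD+LY. Esrp1 lies at chr4:11331933-11386783 (GRCm38) and shares 127 exon bases with a transcript on the other strand.

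The Grainyhead-like factors are activators of junction genes such as Cdh1 and Cldn4, and each of the pair changed at another step. Grhl2 stood at 39.4 and 36.6 CPM in cAMP, 19.5 and 21.7 in 4OHT, and 19.5 and 19.9 in PD+LY. Grhl1 stood at 7.80 and 8.48, 7.41 and 5.81, and 1.48 and 3.36 CPM. Grhl2 was high in cAMP alone, and Grhl1 was low in PD+LY alone. Grhl2 fell by 0.88 ± 0.13 in 4OHT against cAMP (edgeR adjusted p = 0.0021, 0.064 without 4OHT replicate 1) and differed by −0.07 ± 0.13 between PD+LY and 4OHT (adjusted p = 0.75). Grhl1 differed by −0.31 ± 0.30 in the first comparison (adjusted p = 0.58) and fell by 1.44 ± 0.33 in the second (adjusted p = 0.0084). The fall of Grhl1 was 0.97 without PD+LY replicate 1 and 2.15 without PD+LY replicate 2, and its adjusted p was 0.078 without 4OHT replicate 1. Between cAMP and PD+LY, Grhl1 fell by 1.75 ± 0.32 (2.46 without PD+LY replicate 2) and Grhl2 by 0.95 ± 0.13 (adjusted p = 0.0020 and 0.00027). There were 0.101 and 0.0959 counts of Grhl2 per count of Cdh1 in cAMP, 0.0728 and 0.0743 in 4OHT, and 0.0448 and 0.0437 in PD+LY.

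The Ovo-like factors, which repress mesenchymal genes in epithelia, were scarce. Ovol1 stood at 1.57 and 1.85 CPM in cAMP, 1.13 and 1.59 in 4OHT, and 0.357 and 0.486 in PD+LY. It was lowest in PD+LY and fell by 1.68 ± 0.51 against 4OHT and by 2.01 ± 0.49 against cAMP (edgeR adjusted p = 0.032 and 0.011). The first fall had an adjusted p of 0.066 in DESeq2 and of 0.21 in edgeR without 4OHT replicate 2, and the second 0.065 in edgeR without cAMP replicate 2. Ovol1 shares 690 exon bases with a pseudogene transcript on the other strand, so its reads are not wholly its own. Ovol2, at 0.866 to 2.14 CPM, passed no test.

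Matriptase (St14) is a membrane protease of epithelia, held in check by the inhibitors Spint1 and Spint2. St14 stood at 72.6 and 72.1 CPM in cAMP, 98.0 and 95.0 in 4OHT, and 75.3 and 85.0 in PD+LY. It was highest in 4OHT and rose by 0.41 ± 0.10 against cAMP (edgeR adjusted p = 0.027, 0.22 without 4OHT replicate 1). Spint1 and Spint2 did not pass the test in that comparison (0.12 and 0.18), and in PD+LY against 4OHT they fell by 0.37 ± 0.11 and 0.44 ± 0.10 (adjusted p = 0.037 and 0.011). These became 0.25 without 4OHT replicate 1 for Spint1 and 0.15 without 4OHT replicate 2 for Spint2.

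**Figure D4:**
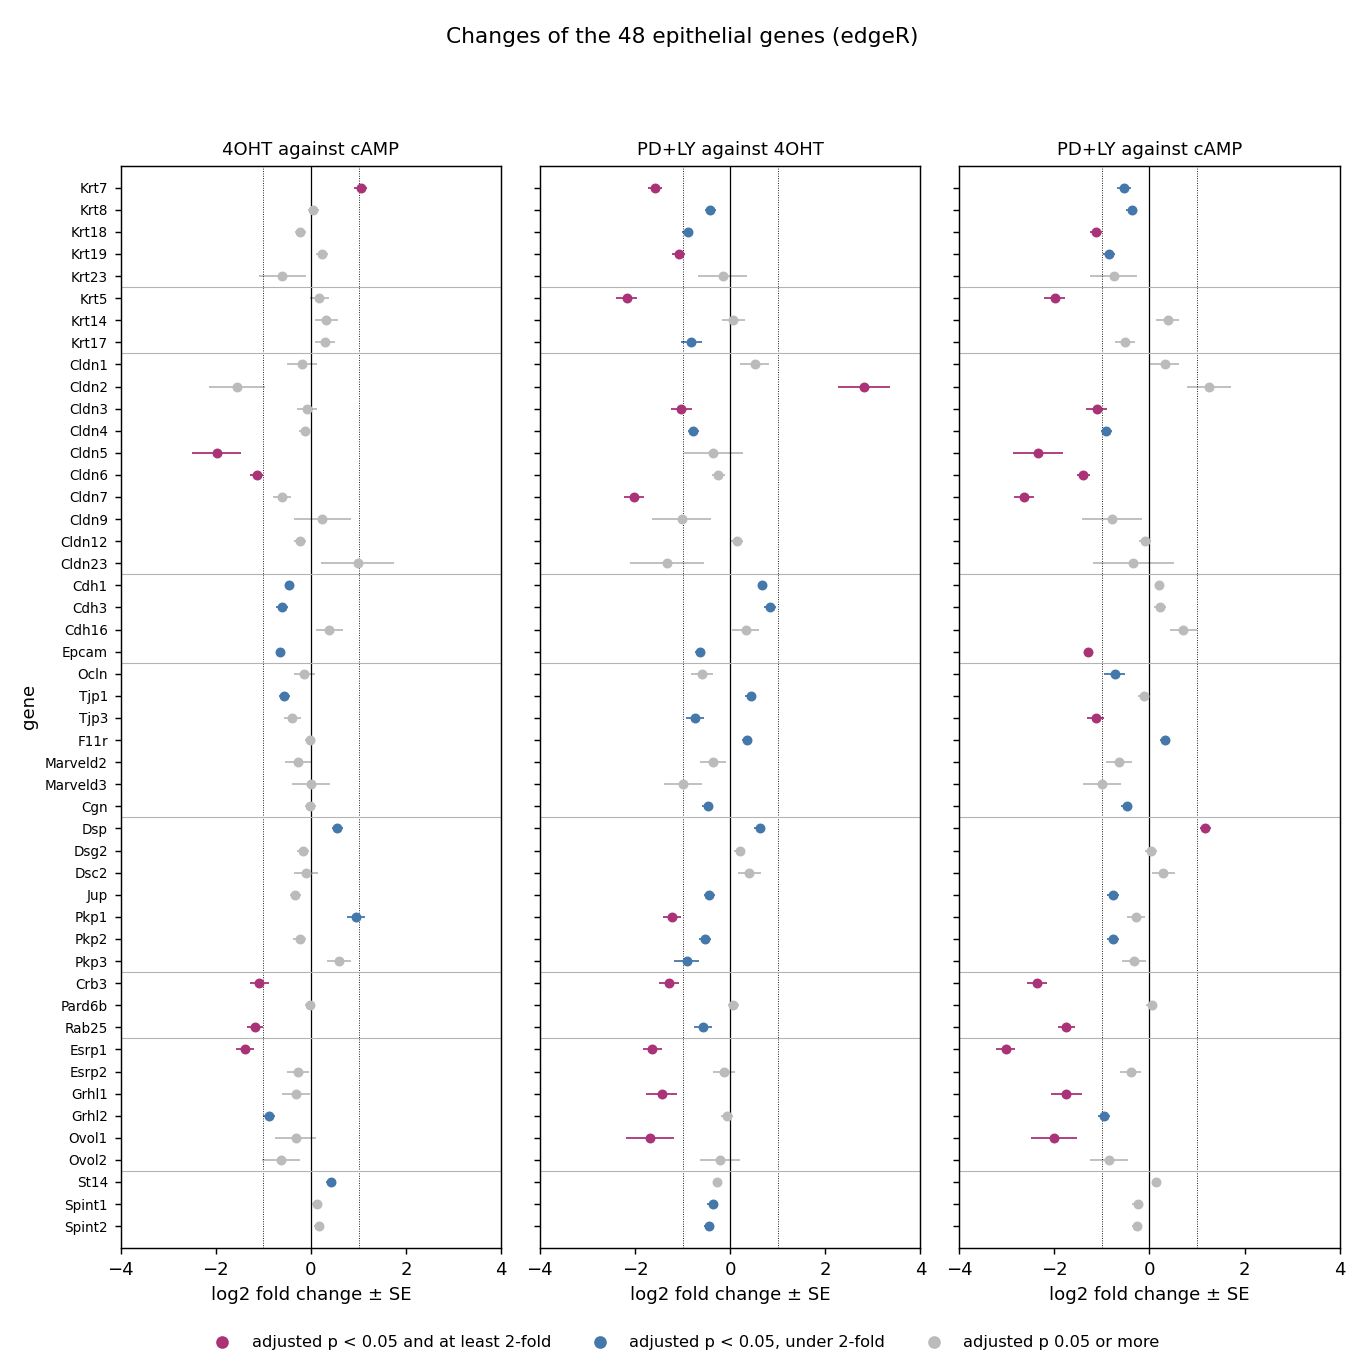
Log2 fold change of each of the 48 genes in the 3 comparisons, with its SE from edgeR; purple marks adjusted p under 0.05 with at least 2-fold change, blue adjusted p under 0.05 with less, grey all others, and dotted lines mark 2-fold. From left to right the panels hold 5, 10 and 13 purple points below 0 and 1 each above it.

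By role, the 2-fold calls in PD+LY against cAMP fell on 4 of 10 claudins, 3 of 6 splicing and transcription factors, 2 of 3 polarity genes, 1 of 5 simple and 1 of 3 basal keratins, 1 of 4 cadherin and Epcam genes, 1 of 7 other tight junction genes and, upward, on 1 of 7 desmosome genes. Of all tested genes 6.24% were called lower and 3.0% higher, and 1 call in a group of 3 to 7 genes is read as no result about that group. None fell on the 3 genes of the matriptase system. Over all comparisons, 14 of the 48 genes never passed adjusted p under 0.05. They were Krt23, Krt14, Cldn1, Cldn9, Cldn12, Cldn23, Cdh16, Marveld2, Marveld3, Dsg2, Dsc2, Pard6b, Esrp2 and Ovol2. The share of all tested genes that never passed is not given here, so this count is read as no result about the 48.

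Other genes of epithelial junctions and surfaces, 81 named in a wider list of which 68 were tested, were called lower more often than higher, as were all tested genes. In 4OHT against cAMP none was called higher and 5 lower by edgeR (7.35%, against 1.51% of all tested genes), namely Prom1 (−2.05), a protein of apical protrusions, Crb2 (−1.38), another Crumbs protein, Ap1m2 (−1.20), the epithelial adaptor of basolateral sorting, and the protease Prss8 and N-cadherin (Cdh2), both just past 2-fold. By adjusted p alone 3 of the 68 were higher and 7 lower. PD+LY, compared with 4OHT, had 1 higher, Jam2 (1.78), and 8 lower (11.8%, against 4.9%), among them Krt20 (−3.82), Krt6b (−2.44), Krt6a (−1.84), Hpn (−1.80), Lad1 (−1.48), Nectin4 (−1.47) and Lsr (−1.05). Krt6a and Krt6b are close copies of each other, and reads may be divided between them. Against cAMP, PD+LY had 2 higher, Jam2 (1.90) and Prkcz (1.01), an atypical protein kinase C of the Par complex, and 12 lower (17.6%, against 6.24%), among them Krt20 (−3.15), Prom1 (−2.90), Tmprss4 (−2.52), Lad1 (−2.35), Krt4 (−2.24), Ap1m2 (−1.96) and Hpn (−1.81). The medians over the 68 were −0.00, −0.16 and −0.24, beside −0.00, 0.01 and 0.00 for all genes.

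Of the 5 repressors of epithelial genes that were tested, none passed adjusted p under 0.05 in 4OHT against cAMP in edgeR. Snai1 stood at 45.5 and 62.6 CPM in cAMP, 40.6 and 44.8 in 4OHT, and 42.7 and 43.0 in PD+LY, its cAMP libraries being the highest (adjusted p = 0.18 in 4OHT). Zeb1 stood at 38.6 and 35.4, 47.6 and 43.0, and 61.1 and 52.8 CPM, and rose by 0.62 in PD+LY against cAMP (adjusted p = 0.0034). Twist1, at 1.41 to 4.17 CPM, fell by 1.03 in PD+LY against 4OHT (adjusted p = 0.044). Snai2 and Zeb2 passed no test. Zeb1 is also expressed by mesenchymal cells, whose summed markers were highest in the same PD+LY libraries, although Pdgfrb and Thy1 were lowest there.

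Lung and airway epithelium, which also depends on Nkx2-1, was followed by 7 markers. They summed to 262 and 236 CPM in cAMP, 286 and 310 in 4OHT, and 60.1 and 40.5 in PD+LY. Of the 7, 4 were called lower in PD+LY against 4OHT, led by Sftpb, a surfactant protein, at −4.34. Most of the sum was Sftpb and Napsa in every library. Foxj1, at 4.00 to 5.66 CPM, passed no test, with differences of 0.03 in PD+LY against 4OHT and −0.24 against cAMP. No marker of the lists used here was at 0 in every library. This sum was lowest in the same libraries as Krt5, Krt19, Cldn4 and Cldn7, and the part of airway-like cells in the fall of those genes was not tested. Visceral endoderm, another epithelium that such cultures can hold, had 6 markers, whose sum of 395 to 454 CPM in the 6 libraries was mostly Ttr. Relative to cAMP, Ttr rose by 0.35 in PD+LY and the other 5 fell by edgeR adjusted p, 4 of them past 2-fold (Amn by 1.62, and Afp, Apoa1 and Apoa2, which were under 5 CPM in every library). The part of such cells in the fall of the 48 genes was not tested either.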

How the data were processed

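According to the authors, RNA libraries were made with a stranded mRNA kit, Trimmomatic removed poor bases, HISAT2 aligned the read pairs to the mm10 genome, and HTSeq assigned them to genes without regard to strand. The deposited values are raw counts of 25239 gene symbols. The annotation used for counting is not given in the sources used here.

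The 48 genes, the wider list and the marker lists were chosen with earlier results of these data known. Counts were tested in R 4.3.3 with edgeR 4.0.16, in 1 quasi-likelihood fit of all 6 libraries after filterByExpr (minimum count 10, minimum total 15) and TMM scaling, which left 15256 genes and removed 9983. Benjamini-Hochberg adjustment covered every tested gene. With 2 libraries against 2, no rank or permutation test of a single gene can pass, so the fits share their spread across genes (common biological coefficient of variation 0.105). CPM used TMM-scaled library totals. Levels between genes were divided by the length of the principal transcript in GENCODE M21, matched by symbol for 48 of 48 genes. Near-identical sequences were sought with BLAST (at least 90% identity over 250 bases). Per-library values are given for each of the 48 genes past both thresholds in any comparison, for 9 others named in advance, and for those that depart from their group; wider genes are named by size of change, at most 8 per comparison. Alternatives were DESeq2 1.42.0, RLE scaling, other filters, a replicate block, fits of 2 groups and leaving out each library.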

Additional observations from a re-analysis of the deposited data

How the results depend on the processing

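With no fold threshold 4 and 10 of the 48 genes were higher and lower from cAMP to 4OHT, 6 and 23 from 4OHT to PD+LY, and 2 and 22 from cAMP to PD+LY. A filter of at least 10 counts in every library removed Cldn2 and left 0 higher in PD+LY against 4OHT. With no filter, Cldn2 joined Dsp and 2 were higher in PD+LY against cAMP. RLE scaling left 3 of the wider list called in 4OHT against cAMP, since Prss8 and Cdh2 lie at the fold threshold. Scaling moved the median of all genes by less than 0.1 on the log2 scale.

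The replicate numbers shared across groups do not show pairing (correlations of replicate differences 0.07, 0.21 and 0.06). With a replicate block 1 and 5, 1 and 10, and 2 and 13 genes were called higher and lower, and every gene under adjusted p 0.05 stayed under it.

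Leaving out single libraries gave 0 to 1 higher and 2 to 5 lower in 4OHT against cAMP, with 2 to 6 of the wider list and a median of −0.25 to −0.019. In PD+LY against 4OHT 7 to 11 were lower, with a median of −0.55 to −0.40, and in PD+LY against cAMP 1 to 2 were higher and 9 to 14 lower, with a median of −0.67 to −0.42. Log2 fold changes that had not passed the test crossed 0 in these fits, in 4OHT against cAMP for Krt8 (−0.10 to 0.21), Cldn3 (−0.33 to 0.26) and Cldn4 (−0.25 to 0.010), in PD+LY against 4OHT for Grhl2 (−0.14 to 0.016) and in PD+LY against cAMP for Tjp1 (−0.25 to 0.025). DESeq2 called 1 and 4, 1 and 9, and 1 and 13 genes higher and lower. The counts limit Cldn2, Cldn5, Cldn9, Cldn23 and Ovol1, at under 4 CPM in every library.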

Other observations

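The 2 cAMP libraries differed from each other in some of the 48 genes, of which 35 were higher in replicate 2 and 13 in replicate 1. The keratins summed to 219 CPM per kb in replicate 1 and 261 in replicate 2 and the claudins to 152 and 178, while the thyroid markers summed to 1660 and 1112 CPM in the opposite order. Crb3 (18.7 and 26.9 CPM), Tjp3 (32.6 and 46.6) and Pkp3 (5.16 and 9.02) shared the order of the keratins. Epcam (203 and 205), Jup (128 and 127) and St14 (72.6 and 72.1) were nearly equal, and Tjp1 (237 and 195) and Dsp (45.5 and 40.7) had the opposite order. These genes were chosen after their values were seen. Between the PD+LY libraries the thyroid markers summed to 2001 and 1000 CPM, and the keratins to 128 and 143 and the claudins to 76.2 and 80.7 CPM per kb. Neural progenitor markers summed to 247 and 232 CPM in cAMP, 151 and 154 in 4OHT, and 204 and 208 in PD+LY. Most of this sum was Otx2 in every library (198 and 183, 108 and 105, and 142 and 139 CPM). Sox1 was called lower in 4OHT and in PD+LY against cAMP (−1.29 and −1.66). Pax6 and Nes did not pass in 4OHT against cAMP (0.04 and −0.01). Both rose in PD+LY against cAMP (0.69 and 0.51, edgeR adjusted p = 0.0060 and 0.020).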
